A study of Mus musculus with 6 samples.

Results

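The genes described here are the nuclear-encoded subunits of respiratory complexes III and IV and of ATP synthase, together with cytochrome c. They were taken from the 45706 genes of the deposited table as the protein-coding genes whose GENCODE M21 symbol begins with Uqcr, with Cox followed by a digit from 4 to 8, or with Atp5, plus Cyc1 and Cycs. This gave 45 genes. Of these, 9 belong to complex III, 11 are subunits of complex IV that most tissues use, 7 are complex IV isoforms known from particular tissues, 16 belong to ATP synthase, and Cycs and Atp5s were kept apart.

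Complex III takes electrons from ubiquinol and hands them to cytochrome c, a small soluble protein, from which complex IV passes them to oxygen. Both complexes pump protons across the inner mitochondrial membrane, and ATP synthase lets the protons flow back through a rotating ring of c subunits to make ATP. The mitochondrial genome encodes cytochrome b of complex III, 3 core subunits of complex IV and 2 subunits of ATP synthase, and the nuclear genes described here encode most of the others. Long-term hematopoietic stem cells are known for a low reliance on respiration, which rises as progenitors differentiate.

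RNA came from sorted LSK cells (Lin- Sca-1+ c-Kit+), the bone marrow compartment that holds hematopoietic stem and multipotential progenitor cells, of 3 Ctrl and 3 cKO mice. All 6 were C57BL/6 males by their labels (C57BL/6J in the methods of the study) and all carried 1 copy of the tamoxifen-inducible Cre transgene Rosa26-Cre-ERT2 (RC/+), which is active in almost all tissues, so that the deletion was not limited to blood cells. The cKO mice were labelled Setd1b HOM (FD/FD; RC/+) and the Ctrl mice Setd1b HET (FD/+; RC/+), where FD is the conditional allele of the H3K4 methyltransferase gene Setd1b. Both groups received tamoxifen by gavage (4.5 mg per day for 4 days and, after 3 days of pause, for 2 more days by the labels, whereas the methods of the study give 5 doses), so that after recombination the Ctrl mice also had 1 disrupted allele. Cells were collected 3 days after the last dose, at 16 weeks of age in 5 mice and at 17 weeks in cKO mouse 3. No wild-type mice and no mice without tamoxifen were analysed here.

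Each mouse gave 1 library, and p-values set the difference between the groups against the spread between mice. Between 13003573 and 21277519 reads per library were counted on genes. The header of the deposited table numbers the libraries in 2 runs of 3, called library series here, although no source used here says what separates them. The first series holds cKO mice 1 and 2 and Ctrl mouse 1, and the second holds cKO mouse 3 and Ctrl mice 2 and 3. With genotype as the only term, the spread within a group also holds any difference between the series. The transcripts Gm42418 and Gm26917 together made up 4.45 to 5.30% of a library in the first series and 7.52 to 9.04% in the second. The total count of Setd1b ran against the genotype labels, with a mean CPM (read counts scaled by library size) of 213 ± 16.2 in Ctrl and of 292 ± 21.1 in libraries labelled cKO (SD, n = 3 each, adjusted p = 0.0015, edgeR). Counts per gene lie mostly outside the deleted exon and are no check of the deletion. Every direction below is that of libraries labelled cKO against Ctrl, and fold changes are given on the log2 scale with their standard error (SE).

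Lists of cell type markers also moved with the labels. Counts of markers are those past an adjusted p of 0.05 by edgeR (lower for 3.79% and higher for 3.88% of all genes tested), as described further below. Granulocyte and monocyte markers passed with a lower level for 9 of 10 genes, and for all 10 the groups did not overlap (13.4% of all genes tested), with a summed level of 2981 to 3581 CPM in the Ctrl libraries and 541 to 864 CPM in libraries labelled cKO. The summed level of the erythroid markers was 471 to 522 CPM in Ctrl and 293 to 344 CPM in libraries labelled cKO, with 5 of 8 tested genes lower. For the lymphoid markers (3 of 6 lower) it was 440 to 1021 CPM in Ctrl and 106 to 156 CPM in libraries labelled cKO. Mast cell and basophil markers (3 of 4 lower) summed to 54.1 to 61.3 CPM in Ctrl and 18.2 to 25.5 CPM under the cKO label, and stromal and endothelial markers (3 of 4 lower, 1 higher) to 121 to 133 and 99.3 to 101 CPM. The sums overlapped for megakaryocyte markers (1 of 5 lower, 132 to 165 and 117 to 150 CPM) and plasma cell markers (1 of 3 lower, 80.2 to 95.1 and 71.2 to 87.7 CPM). Markers of the LSK compartment itself summed to 1527 to 1725 CPM in Ctrl and 1575 to 1667 CPM in libraries labelled cKO. In these bulk samples a lower share of cells of one type and less RNA per cell cannot be told apart, and the part of these marker lists in the results below was not tested.

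Of the 45 genes, 42 passed the filter on low counts. With edgeR's quasi-likelihood test and Benjamini-Hochberg adjustment over 15184 genes, 7 of the 42 passed an adjusted p of 0.05 with a lower level under the cKO label, where 3.79% of all genes tested were lower and 7.67% differed in either direction. None was higher by edgeR, where 3.88% of all genes tested were, and none by DESeq2 or at an unadjusted p under 0.05, which 11.3% of all genes tested reached with a higher level. The 7 genes encode core protein 1 and cytochrome c1 of complex III (Uqcrc1 and Cyc1) and its small subunit Uqcrq, subunits 4 and 6a of complex IV (Cox4i1 and Cox6a1), and the beta and OSCP subunits of ATP synthase (Atp5b and Atp5o). The changes were small. Cox4i1, with the smallest change, fell by 16.2%, and Cyc1, with the largest, fell by 27.2%. Most other members deviated in the same direction without passing. The fitted log2 fold change was below 0 for 37 of the 42 genes (49.9% of all genes tested) with a median of -0.22, against 0.00023 over all genes tested. An unadjusted p under 0.05 with a lower level was reached by 23 of the 42 (11.5% of all genes tested), and for 17 of the 42 every library labelled cKO lay below every Ctrl library (13.4% of all genes tested).

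**Figure D1:**
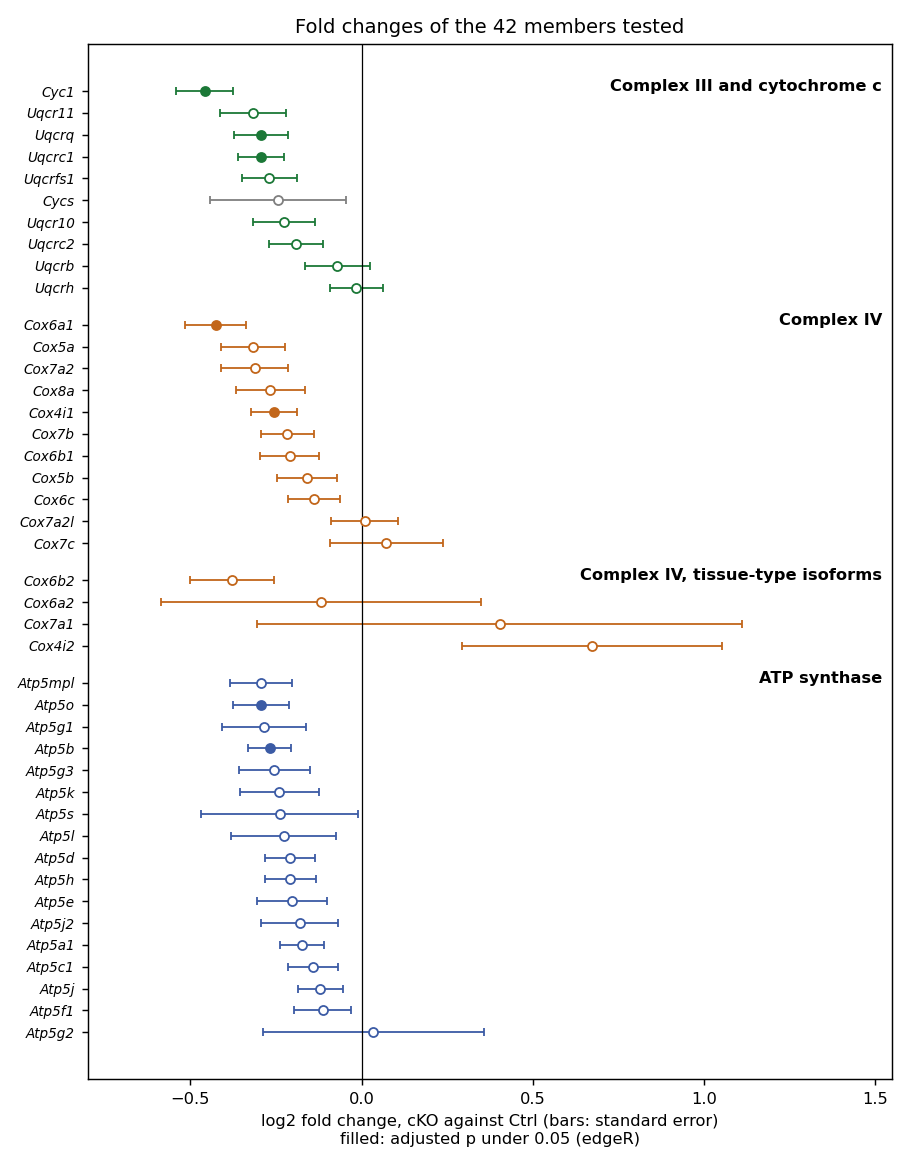
Fitted log2 fold change of each of the 42 genes tested, labelled cKO against Ctrl, grouped by complex, with bars for the standard error and filled points for an adjusted p under 0.05 (edgeR). The 7 filled points lie between -0.46 and -0.25, and most open points of the complexes lie on the same side of 0.

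The 7 calls depended on single mice. Without Ctrl mouse 1 there were 16 lower members (3.80% of all genes in that fit), whereas 3 remained without Ctrl mouse 2 (2.82%), 2 without Ctrl mouse 3 (2.18%) and 2 without cKO mouse 2 (1.98%). Without cKO mouse 3 there were 4 lower members (2.52% of all genes), 3 of them among the 7, and without cKO mouse 1 there were 6 (2.56% of all genes), of which 3 were among the 7. Cyc1 and Cox6a1 passed in each of these fits. DESeq2 gave 12 lower members, including all 7, where 4.27% of the genes it tested were lower.

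All 9 subunits of complex III had a fitted log2 fold change below 0 (49.9% of all genes tested), with a median of -0.27. Of the 9, 3 passed the threshold, where 3.79% of all genes tested were lower. For 6 of the 9 the groups did not overlap (13.4% of all genes tested with a lower level). Their summed level was 697 to 782 CPM in the Ctrl mice and 614 to 648 CPM in the mice labelled cKO.

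Cyc1 (ENSMUSG00000022551), on chromosome 15 from 76343523 to 76345934 (GRCm38), encodes cytochrome c1, the heme protein of complex III that reduces cytochrome c. Its level was 58.4, 68.6 and 67.3 CPM in Ctrl mice 1 to 3 and 48.4, 46.8 and 46.5 CPM in mice labelled cKO 1 to 3. All Ctrl mice lay above all mice labelled cKO, and the latter differed little among themselves. Cyc1 fell by 0.46 on the log2 scale (SE 0.084, adjusted p = 0.0034, edgeR), the largest fall of the 42 genes tested. It passed under each of 14 alternative settings, with adjusted p-values of at most 0.0248. Within the library series the log2 difference was -0.29 in the first and -0.55 in the second.

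Uqcrc1 (ENSMUSG00000025651), on chromosome 9 from 108936633 to 108949623, encodes core protein 1, one of the large matrix-facing subunits. Its level was 179, 204 and 201 CPM in Ctrl mice 1 to 3 and 156, 156 and 165 CPM in mice labelled cKO 1 to 3, again without overlap. The log2 fold change was -0.29 (SE 0.068, adjusted p = 0.015, edgeR), with -0.20 in the first series and -0.29 in the second. Uqcrc1 missed the threshold without Ctrl mouse 2 or 3 and without cKO mouse 1 or 2, with adjusted p-values of 0.055 to 0.084, and over all 14 alternatives they lay between 0.0011 and 0.084. Its promoter is shown because matches to a motif of nuclear respiratory factor 1 (NRF1), a known activator of respiratory genes, lie in it.

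Uqcrc1 promoter, GRCm38.p6 chr9:108936398-108936697, + strand, from RefSeq, 250 bases before to 50 after the start, with matches to the NRF1 motif in capitals:
Uqcrc1: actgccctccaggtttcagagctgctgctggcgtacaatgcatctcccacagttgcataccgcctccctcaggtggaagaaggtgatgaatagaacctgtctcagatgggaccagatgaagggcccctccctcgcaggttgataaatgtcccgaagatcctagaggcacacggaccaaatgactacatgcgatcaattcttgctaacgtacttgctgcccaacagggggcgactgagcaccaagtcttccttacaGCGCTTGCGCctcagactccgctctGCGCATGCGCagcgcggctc

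Uqcrq (ENSMUSG00000044894), on chromosome 11 from 53427922 to 53430831, encodes a small subunit of complex III. Its level was 90.4, 99.7 and 91.2 CPM in Ctrl mice 1 to 3 and 80.3, 80.4 and 68.9 CPM in mice labelled cKO 1 to 3. The groups did not overlap, and cKO mouse 3 was lowest. The log2 fold change was -0.29 (SE 0.079, adjusted p = 0.035, edgeR), with -0.17 in the first series and -0.47 in the second. The call was lost when any mouse but Ctrl mouse 1 was left out, and adjusted p-values over the 14 alternatives ran from 0.0071 to 0.12.

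Of the subunits of complex III that did not pass, Uqcrh, the hinge protein that contacts cytochrome c1, had the largest p. Its level was 87.0, 98.5 and 90.0 CPM in Ctrl mice 1 to 3 and 85.3, 98.3 and 89.2 CPM in mice labelled cKO 1 to 3, so that the groups covered nearly the same range. Its log2 fold change was -0.02 (SE 0.077, adjusted p = 0.94, edgeR). Uqcrb was the other subunit near 0, at -0.07. Uqcr11, Uqcrfs1 (the Rieske iron-sulfur protein), Uqcr10 and Uqcrc2 had values from -0.32 to -0.19 with adjusted p-values from 0.057 to 0.16, and all of these except Uqcr10 had no overlap between the groups. Cytochrome c itself, Cycs (ENSMUSG00000063694), was measured at 8.57, 11.7 and 8.64 CPM in Ctrl and 7.37, 10.3 and 6.80 CPM in mice labelled cKO. The groups overlapped and its value of -0.25 (SE 0.20) did not pass (adjusted p = 0.51, edgeR). Of the windows of 75 bases, the read length, along its transcript, 26.1% occur in other genes, so that the unique counts of Cycs are incomplete.

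**Figure D2:**
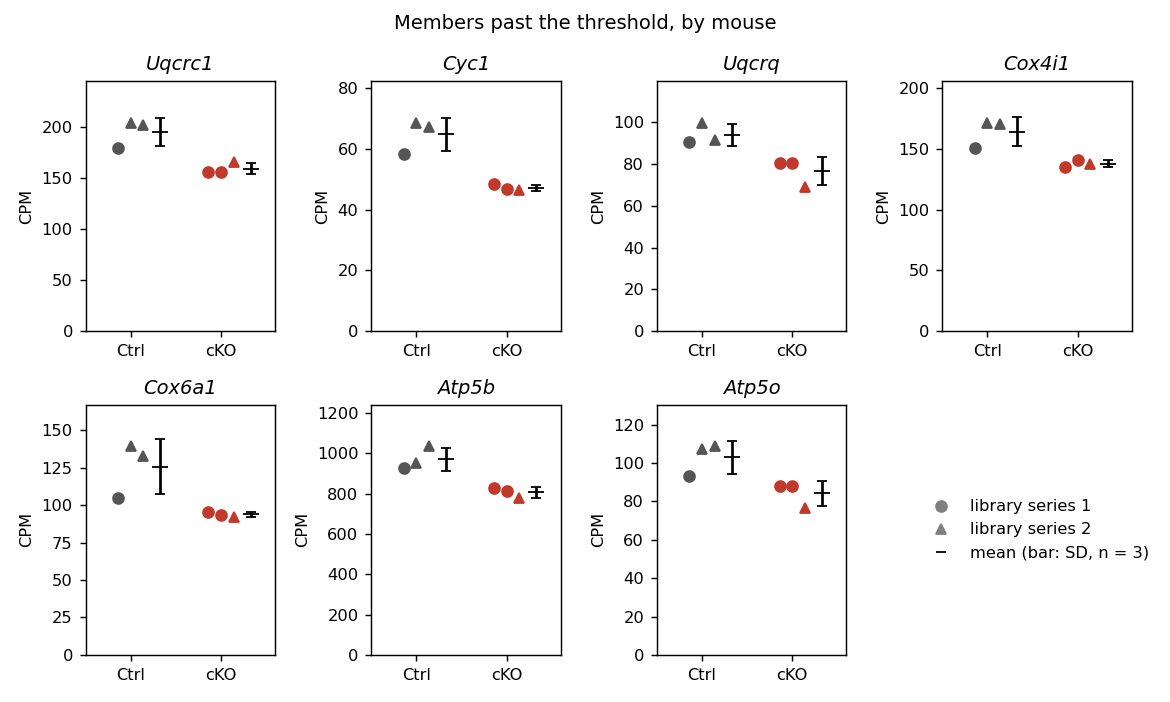
CPM of the 7 genes past the threshold in each mouse, Ctrl in grey and labelled cKO in red, with circles for the first and triangles for the second library series, and the group mean with a bar for the SD (n = 3). No group overlaps with the other, and Ctrl mouse 1, the grey circle, is the lowest Ctrl mouse in every panel.

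Among the 11 widely used subunits of complex IV, Cox6a1 and Cox4i1 passed the threshold, where 3.79% of all genes tested were lower. The fitted log2 fold change was below 0 for 9 of the 11 (49.9% of all genes tested), with a median of -0.22. For 4 of the 11 the groups did not overlap (13.4% of all genes tested with a lower level). The summed level was 895 to 1065 CPM in the Ctrl mice and 833 to 880 CPM in the mice labelled cKO. Ctrl mouse 1 set the lower end of the Ctrl range. Without it 7 of the 11 were called (3.80% of all genes in that fit were lower) and the median was -0.30. Without each of the other Ctrl mice and cKO mice 2 and 3 in turn 1 of the 11 was called (1.98 to 2.82% of all genes).

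Cox6a1 (ENSMUSG00000041697), on chromosome 5 from 115345642 to 115348981, encodes the widely used form of subunit 6a, which lies near the dimer interface of the enzyme. Its level was 105, 139 and 133 CPM in Ctrl mice 1 to 3 and 95.8, 93.5 and 92.4 CPM in mice labelled cKO 1 to 3. The mice labelled cKO were close together, and Ctrl mouse 1 lay nearer to them than to the other Ctrl mice. Cox6a1 fell by 0.43 on the log2 scale (SE 0.089, adjusted p = 0.0082, edgeR), and it passed under all 14 alternatives with adjusted p-values of at most 0.0497. Within the series the difference was -0.15 in the first and -0.56 in the second. Its promoter holds matches to NRF1 and ETS motifs, the latter being bound by factors such as GABP.

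Cox6a1 promoter, GRCm38.p6 chr5:115348909-115349208, - strand, from RefSeq, with NRF1 and ETS matches in capitals:
Cox6a1: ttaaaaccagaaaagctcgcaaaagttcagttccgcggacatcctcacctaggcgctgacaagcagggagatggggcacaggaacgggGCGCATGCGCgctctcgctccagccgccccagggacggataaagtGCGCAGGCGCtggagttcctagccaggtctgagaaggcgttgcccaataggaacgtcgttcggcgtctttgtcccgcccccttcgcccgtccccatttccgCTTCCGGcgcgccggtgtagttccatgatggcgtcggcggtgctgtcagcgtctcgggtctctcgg

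Cox4i1 (ENSMUSG00000031818), on chromosome 8 from 120668222 to 120674207, encodes the widely used form of subunit 4, which is known to bind ATP. Its level was 151, 172 and 170 CPM in Ctrl mice 1 to 3 and 135, 141 and 137 CPM in mice labelled cKO 1 to 3, without overlap. The log2 fold change was -0.25 (SE 0.068, adjusted p = 0.033, edgeR), with -0.13 in the first series and -0.32 in the second. Among the fits with 1 mouse left out, Cox4i1 passed only without Ctrl mouse 1. With the library series as a covariate its adjusted p was 0.061, and over the 14 alternatives it ran from 0.0087 to 0.12.

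Cox7a2l, a relative of subunit 7a, had the largest p of the complex. Its level was 43.0, 52.9 and 42.4 CPM in Ctrl mice 1 to 3 and 48.8, 46.2 and 44.5 CPM in mice labelled cKO 1 to 3. The mice labelled cKO lay within the range of the Ctrl mice, and the log2 fold change was 0.01 (SE 0.098, adjusted p = 0.97, edgeR). Cox7c was the other subunit above 0, at 0.07, and 50.4% of the windows of its transcript occur in other genes. The remaining subunits, Cox5a, Cox7a2, Cox8a, Cox7b, Cox6b1, Cox5b and Cox6c, had log2 fold changes from -0.32 to -0.14. None of these 7 passed, with Cox5a nearest (adjusted p = 0.053) and passing under 7 of 14 alternatives.

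Of the 7 tissue-type isoforms of complex IV none passed, also not with DESeq2. Cox7b2 and Cox8c, known from testis, had 0 counts in all 6 libraries, and Cox8b, the heart and muscle form of subunit 8, had 2 counts in Ctrl mouse 2 and 0 elsewhere. A count of 0 allows up to 0.143 to 0.229 CPM per library, taken as 3 counts and covering counting error only. These 3 genes were not tested. Markers of skeletal muscle and of brown fat, tissues that use some of these isoforms, had at most 12 counts in any library, with Ucp1, Cidea, Myh1, Myh4 and Myl1 at 0 in all 6.

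Cox4i2, the isoform of subunit 4 known from lung and from cells low in oxygen, was measured at 1.22, 1.43 and 3.39 CPM in Ctrl mice 1 to 3 and 2.75, 4.00 and 2.88 CPM in mice labelled cKO 1 to 3. Ctrl mouse 3 lay among the mice labelled cKO and the other Ctrl mice below them. The log2 fold change of 0.67 (SE 0.38) did not pass (adjusted p = 0.32, edgeR), and it was 0.44 without Ctrl mouse 1 and 1.26 without Ctrl mouse 3, the extremes with 1 mouse left out. As a share of the subunit 4 transcripts per exon base, Cox4i2 made up 2.32 ± 1.26% (SD, n = 3) in Ctrl and 4.36 ± 0.80% (SD, n = 3) in mice labelled cKO. By this measure the groups did not overlap, with 1.57, 1.61 and 3.77% in Ctrl and 3.85, 5.28 and 3.96% in mice labelled cKO. The exact permutation test gave a two-sided p of 0.1, the smallest that 3 mice against 3 allow. With the length of the principal transcript the share was 1.25% in Ctrl and 2.36% in mice labelled cKO, and as a share of counts 1.19% and 2.27%, with the same p in both. It rests on 16 to 63 counts of Cox4i2 in a library.

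Cox6b2, the testis form of subunit 6b, was the only tissue-type isoform with a mean level per exon base within the range of the widely used subunits, at 40.7 ± 4.45 TPM in Ctrl (SD, n = 3). Its level was 31.5, 39.3 and 41.0 CPM in Ctrl mice 1 to 3 and 26.3, 26.5 and 33.6 CPM in mice labelled cKO 1 to 3. Ctrl mouse 1 lay below cKO mouse 3, so that the groups overlapped. The log2 fold change was -0.38 (SE 0.12, adjusted p = 0.076, edgeR), and Cox6b2 passed without Ctrl mouse 1 (adjusted p = 0.027), without cKO mouse 3 (0.032) and with no filter on low counts (0.013). Per exon base it made up 16.7 ± 1.09% of the subunit 6b transcripts in Ctrl and 15.1 ± 2.30% in mice labelled cKO (SD, n = 3, exact permutation test, two-sided p = 0.3). The size of this share depends on the length, with 31.6% and 29.2% by the length of the principal transcript and 30.5% and 28.1% by counts. Cox6a2 and Cox7a1, the heart and muscle forms of subunits 6a and 7a, had 12 to 87 and 1 to 21 counts in a library and log2 fold changes of -0.12 and 0.40 with adjusted p-values of 0.91 and 0.79. Without Ctrl mouse 2 that of Cox6a2 was 0.75, and without Ctrl mouse 1 that of Cox7a1 was -0.0045, so that neither has a settled direction. Their shares of 1.82 ± 1.24% and 1.16 ± 1.31% in Ctrl and 2.33 ± 0.49% and 2.23 ± 0.53% in mice labelled cKO (SD, n = 3) overlapped.

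**Figure D3:**
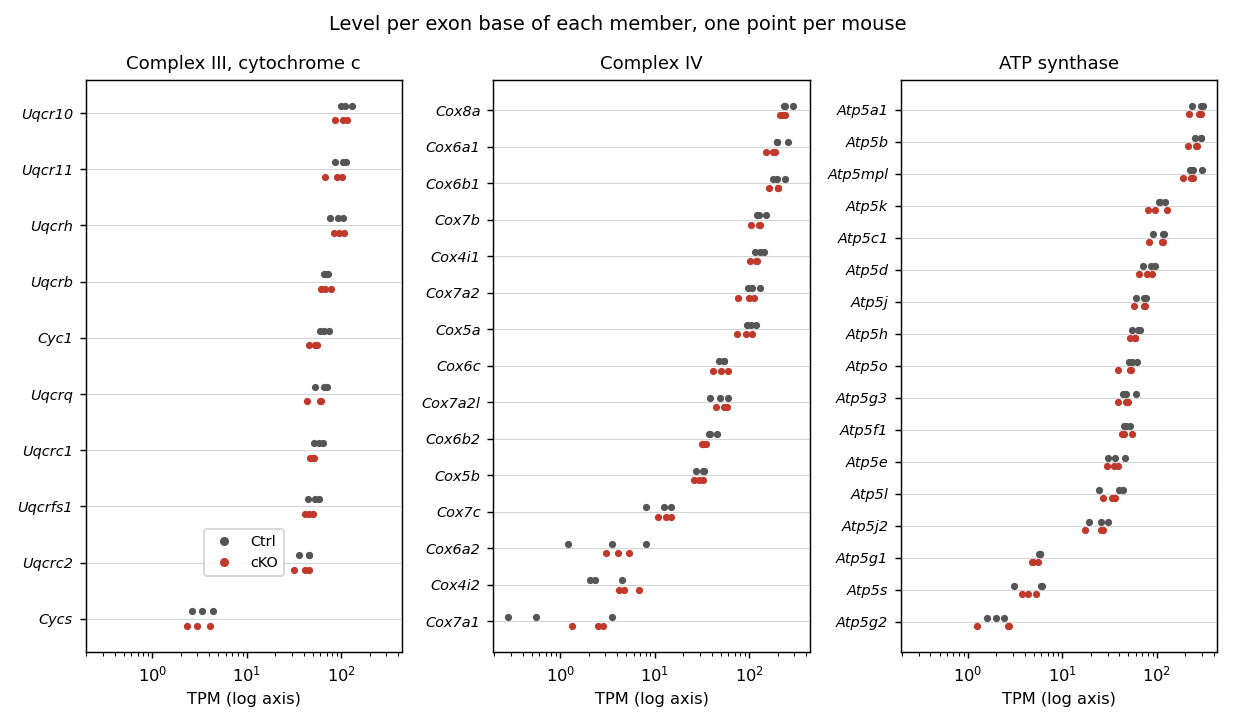
Level of each tested gene in TPM (counts divided by summed exon length and scaled to 1 total per library, log axis), 1 point per mouse, Ctrl in grey and labelled cKO in red, ordered within each panel by the Ctrl mean. Cox4i2, Cox6a2 and Cox7a1 lie at the bottom of complex IV, whereas Cox6b2 lies among the widely used subunits.

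Levels of the subunits differed widely per exon base, as TPM (counts divided by summed exon length and scaled to the same total in each library). In Ctrl the mean TPM ran from 42.4 for Uqcrc2 to 111 for Uqcr10 in complex III. In complex IV it ran from 11.8 for Cox7c to 257 for Cox8a among the widely used subunits, and in ATP synthase from 2.00 for Atp5g2 to 278 for Atp5a1 and Atp5b. The TPM of Atp5a1 and Atp5b, the alpha and beta subunits of the F1 head, did not differ beyond their spread in Ctrl (278 ± 38.4 and 278 ± 20.3, SD, n = 3). This match depends on the length used. The summed exons hold 3135 bases for Atp5a1 and 4237 for Atp5b, but the principal transcripts hold 2471 and 1916. With a mean of 970 CPM in Ctrl against 714 for Atp5a1, Atp5b would lie above Atp5a1 by the principal transcript length. TPM were not rescaled by TMM factors, and over all genes tested the median log2 ratio of the group means on this scale was 0.078 in place of 0.00023. On the TPM scale 35 of the 42 members were still below 0 (35.7% of all genes tested), with a median of -0.13. Only 4 (Cyc1, Cox6a1, Cox6b2 and Atp5g1) had groups without overlap (3.76% of all genes tested). Of the 7 genes past the threshold these were Cyc1 and Cox6a1.

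For ATP synthase, 15 of 16 subunits had a log2 fold change below 0 (49.9% of all genes tested), with a median of -0.21. Atp5b and Atp5o passed the threshold, where 3.79% of all genes tested were lower. For 7 of the 16 the groups did not overlap (13.4% of all genes tested with a lower level). The summed level was 2727 to 2974 CPM in the Ctrl mice and 2362 to 2613 CPM in the mice labelled cKO. Without Ctrl mouse 3, cKO mouse 2 or cKO mouse 3 none of the 16 passed. Without Ctrl mouse 2 only 1 passed (2.82% of all genes in that fit), and without Ctrl mouse 1 there were 4 (3.80%).

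Atp5b (ENSMUSG00000025393), on chromosome 10 from 128083273 to 128090391, encodes the beta subunit, which carries the catalytic sites of the F1 head. Its level was 928, 949 and 1034 CPM in Ctrl mice 1 to 3 and 828, 813 and 776 CPM in mice labelled cKO 1 to 3. The groups did not overlap and cKO mouse 3 was lowest. Atp5b fell by 0.27 on the log2 scale (SE 0.063, adjusted p = 0.017, edgeR), with -0.18 in the first series and -0.35 in the second. It missed the threshold without Ctrl mouse 3, cKO mouse 2 or cKO mouse 3 (adjusted p from 0.052 to 0.074), and over the 14 alternatives the adjusted p ran from 1.7e-04 to 0.074.

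Atp5o (ENSMUSG00000022956), on chromosome 16 from 91684398 to 91931687, encodes OSCP, which ties the F1 head to the peripheral stalk. Its level was 93.1, 107 and 109 CPM in Ctrl mice 1 to 3 and 87.8, 88.1 and 76.6 CPM in mice labelled cKO 1 to 3, without overlap. The log2 fold change was -0.29 (SE 0.081, adjusted p = 0.040, edgeR), with -0.08 in the first series and -0.50 in the second. The call was lost when any mouse but Ctrl mouse 1 was left out and with the library series as a covariate (adjusted p = 0.061), and the adjusted p over the 14 alternatives ran from 0.0057 to 0.14. The gene model of the table takes in the span of 2 GENCODE M21 genes that both bear this symbol, from 91684398 to 91926982 and from 91925214 to 91931687, so that its counts cannot be given to either alone. The exons of Atp5o share 12.7% of their bases with Donson on the same strand, so that some reads of the 2 genes cannot be told apart. The promoters of both genes are shown because they differ in these motifs, with 1 match to the NRF1 motif in Atp5o and none to NRF1 or ETS in Atp5b.

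Promoters from RefSeq (GRCm38.p6), Atp5b at chr10:128083057-128083356 on the + strand and Atp5o at chr16:91931581-91931880 on the - strand, with NRF1 and ETS matches in capitals:
Atp5b: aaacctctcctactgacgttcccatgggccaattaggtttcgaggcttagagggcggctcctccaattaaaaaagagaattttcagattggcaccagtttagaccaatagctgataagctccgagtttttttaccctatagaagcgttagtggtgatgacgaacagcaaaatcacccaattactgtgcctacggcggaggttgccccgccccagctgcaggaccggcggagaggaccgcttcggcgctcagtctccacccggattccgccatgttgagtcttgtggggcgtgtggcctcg
Atp5o: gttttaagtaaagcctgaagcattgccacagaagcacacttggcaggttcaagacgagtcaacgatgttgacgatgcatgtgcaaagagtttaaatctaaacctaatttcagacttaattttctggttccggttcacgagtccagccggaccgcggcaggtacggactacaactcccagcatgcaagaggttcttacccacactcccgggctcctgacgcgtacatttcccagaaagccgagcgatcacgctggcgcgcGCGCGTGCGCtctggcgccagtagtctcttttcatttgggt

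The parts of ATP synthase had similar medians. The median log2 fold change was -0.20 over the 5 subunits of the F1 head, which hold the catalytic sites and the rotor shaft, and -0.16 over the 4 of the peripheral stalk. It was -0.23 over the 4 other subunits of the membrane part Fo and -0.25 over the 3 c subunit genes. Of the subunits of the F1 head, Atp5a1, Atp5d, Atp5e and Atp5c1 had values from -0.21 to -0.14 and did not pass. In the peripheral stalk, Atp5h, Atp5j and Atp5f1 lay between -0.21 and -0.11, and the other Fo subunits Atp5mpl, Atp5k, Atp5l and Atp5j2 lay between -0.29 and -0.18, without passing. Of the windows of the Atp5l transcript 76.0% occur in other genes. Atp5s, which was kept apart, had a value of -0.24 (adjusted p = 0.59, edgeR) at 3.10 to 6.08 TPM.

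The c ring is built from 1 protein that Atp5g1, Atp5g2 and Atp5g3 encode with different import sequences. The last 78 codons of the 3 coding sequences encode the same residues, so that the genes can be told apart in this stretch only by their bases. Of its 234 bases, Atp5g1 has 184 and Atp5g2 has 181 as in Atp5g3. The stretch is shown because reads within it can be given to 1 of these paralogues only by such differences. The counted exons are longer, with 4912 bases for Atp5g1, 1675 for Atp5g2 and 2181 for Atp5g3. The 63 columns at which the 3 genes are not all alike are in capitals (GENCODE M21 transcripts).

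The last 234 coding bases before the stop codon of each gene:
Atp5g1: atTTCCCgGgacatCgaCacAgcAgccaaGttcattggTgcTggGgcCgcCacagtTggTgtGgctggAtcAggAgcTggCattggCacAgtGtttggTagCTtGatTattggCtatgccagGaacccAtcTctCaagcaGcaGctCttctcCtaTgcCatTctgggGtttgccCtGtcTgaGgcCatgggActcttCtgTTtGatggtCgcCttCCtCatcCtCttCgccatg
Atp5g2: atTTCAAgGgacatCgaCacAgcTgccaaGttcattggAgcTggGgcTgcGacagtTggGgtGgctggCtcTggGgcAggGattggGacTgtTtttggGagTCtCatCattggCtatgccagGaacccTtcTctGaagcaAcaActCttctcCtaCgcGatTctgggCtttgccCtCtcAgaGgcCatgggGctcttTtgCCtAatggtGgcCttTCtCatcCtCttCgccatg
Atp5g3: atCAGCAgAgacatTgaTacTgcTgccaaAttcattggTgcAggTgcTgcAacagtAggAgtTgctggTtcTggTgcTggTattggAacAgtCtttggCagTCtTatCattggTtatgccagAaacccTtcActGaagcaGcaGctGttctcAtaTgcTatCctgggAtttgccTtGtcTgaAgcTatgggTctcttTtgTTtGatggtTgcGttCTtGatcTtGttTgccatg

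Atp5g3 provided most of the c subunit transcripts. Per exon base its share was 86.5 ± 2.47% in Ctrl and 86.3 ± 0.44% in mice labelled cKO, that of Atp5g1 was 9.98 ± 1.32% and 9.63 ± 0.85%, and that of Atp5g2 was 3.55 ± 1.16% and 4.11 ± 1.13% (SD, n = 3 each). The shares overlapped between the groups for all 3 genes, with two-sided p-values of 0.9, 0.8 and 0.5 in exact permutation tests. The shares depend on the length used. With the length of the principal transcript, tried once the data were known, Atp5g3 had 93.4% in Ctrl and Atp5g1 had 3.73%, and as shares of counts they had 77.5% and 20.1%. Atp5g2 had the largest p of the complex, with a log2 fold change of 0.03 (SE 0.32, adjusted p = 0.97, edgeR). Its level was 3.06, 2.05 and 3.20 CPM in Ctrl mice 1 to 3 and 3.28, 3.30 and 1.82 CPM in mice labelled cKO 1 to 3, and the groups overlapped. With the library series as a covariate its log2 fold change was -0.18, and 86.9% of the windows of its transcript occur in other genes, so that its counts are uncertain.

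Over the 45 genes, 24 shared no window of 75 bases with any other gene, 14 shared more than 10% and 3 shared more than 50% (Atp5g2, Atp5l and Cox7c). Of the 7 genes past the threshold, Cyc1, Uqcrc1, Uqcrq and Atp5b shared none, Cox6a1 shared 6.44%, Cox4i1 11.6% and Atp5o 22.3%.

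The difference between the groups was larger in the second library series than in the first. Over the 42 tested genes the median log2 difference was -0.06 within the first series and -0.32 within the second, and 40 of the 42 had the larger fall in the second series (50.1% of all genes tested). By complex the medians were -0.15 and -0.35 for complex III, -0.09 and -0.32 for complex IV and -0.05 and -0.34 for ATP synthase. Values below 0 in both series were found for 27 of the 42 (31.3% of all genes tested), and the 7 genes past the threshold were among them. The interaction of genotype and library series, computed once the data were known, passed for none of the 42 with edgeR, with adjusted p-values of at least 0.79 and with 11 of the 42 at an unadjusted p under 0.05. It passed for 0.00659% of all genes tested, and 6.20% of them had an unadjusted p under 0.05. Each series holds 1 mouse alone in one of the groups, and with the series as a covariate 5 of the 7 genes passed.

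**Figure D4:**
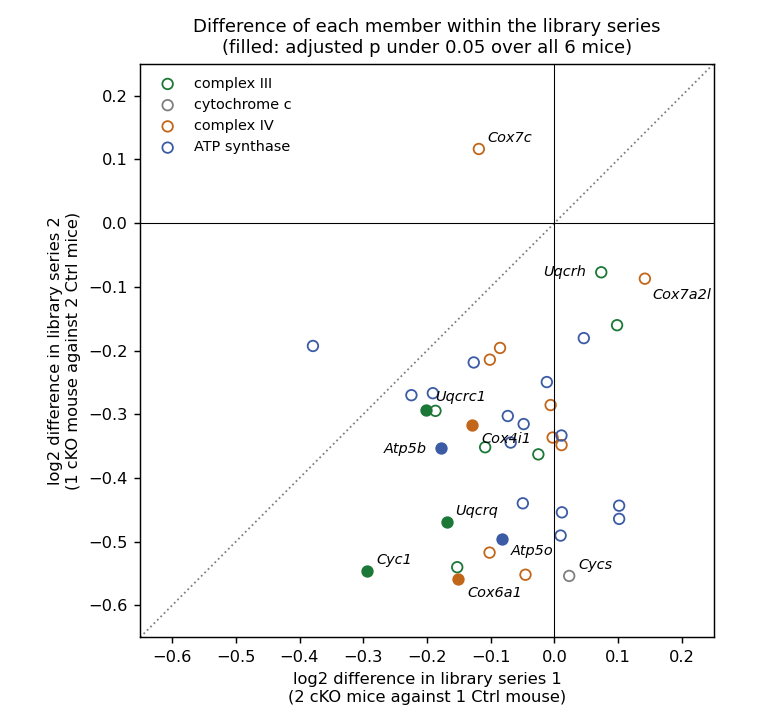
Log2 difference of the mean log2 CPM between mice labelled cKO and Ctrl within the first (horizontal) and second (vertical) library series for 38 genes without the tissue-type isoforms, with filled points for an adjusted p under 0.05 over all 6 mice. Of the 38 points, 36 lie below the dotted line of equal differences, and the filled points lie below 0 on both axes.

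The spread among the Ctrl mice was of the same order as the difference between the groups. As the mean over the subunits of log2 CPM minus the Ctrl mean, complex III stood at -0.10, 0.07 and 0.03 in Ctrl mice 1 to 3 and at -0.18, -0.23 and -0.29 in mice labelled cKO 1 to 3. For complex IV the values were -0.12, 0.10 and 0.02 in Ctrl and -0.15, -0.20 and -0.24 in mice labelled cKO. For ATP synthase they were -0.09, 0.06 and 0.04 in Ctrl and -0.11, -0.17 and -0.30 in mice labelled cKO. Ctrl mouse 1 was nearest to the mice labelled cKO in each complex, and the groups did not overlap in any of the 3. Ctrl mouse 1 and cKO mice 1 and 2 belong to the first library series.

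**Figure D5:**
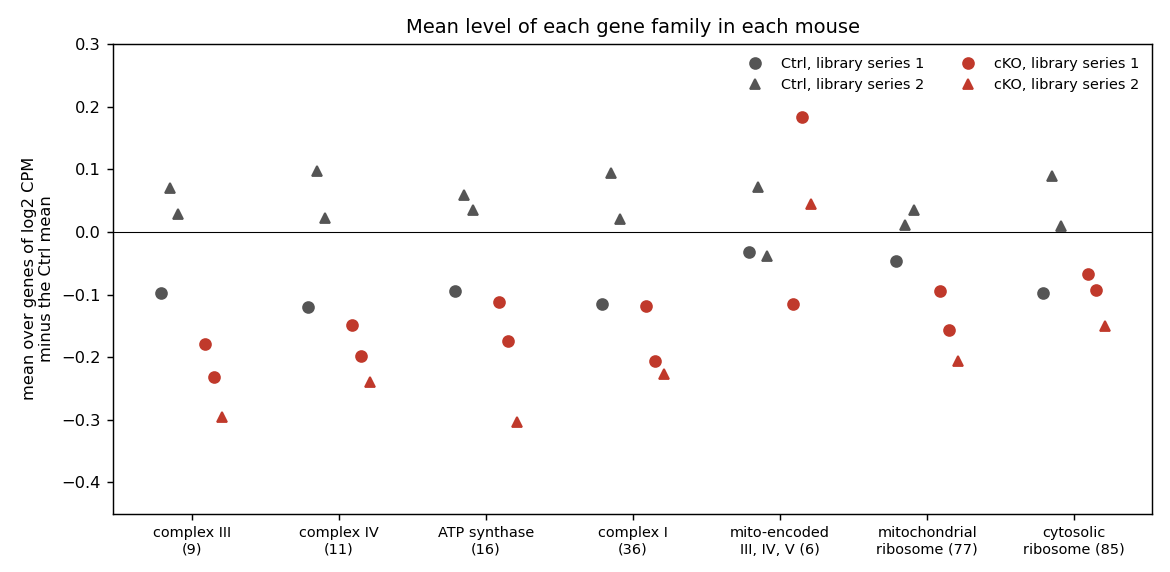
Mean over the genes of a family of log2 CPM minus the Ctrl mean in each mouse, with circles for the first and triangles for the second library series and the number of tested genes in parentheses. Ctrl mouse 1 (grey circle) lies between the other Ctrl mice and the mice labelled cKO for complexes III and IV and ATP synthase, while for the cytosolic ribosome and for the mitochondrially encoded subunits, where genes with few counts weigh as much as the others, the groups overlap.

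Other genes of the same pathway gave the following values. Of the 6 mitochondrially encoded subunits of the same complexes none passed with edgeR and 1 was lower at an unadjusted p under 0.05 (11.5% of all genes tested). Their median log2 fold change was -0.06. This median includes mt-Atp8, mt-Co2 and mt-Co3, which had only 4 to 53 counts in a library. The summed level of the 6, nearly all of it from mt-Co1 and mt-Cytb, was 5945 to 6253 CPM in Ctrl and 5344 to 5730 CPM in libraries labelled cKO, without overlap. The gene nearest to the threshold was mt-Cytb, the cytochrome b of complex III (-0.16, adjusted p = 0.13), which passed with DESeq2. Assembly factors did not pass, with 0 of 6 for complex III, 0 of 22 for complex IV and 0 of 3 for ATP synthase, by edgeR and by DESeq2. At an unadjusted p under 0.05, 3 of the 22 and 1 of the 3 were lower and none of the 6 for complex III, where 11.5% of all genes tested were. Their medians were -0.05, -0.07 and -0.22, and the values with the smallest p were those of Uqcc1 (-0.18), Coa3 (-0.38) and Tmem70 (-0.23).

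Transcriptional regulators of respiratory genes did not pass either, at 0 of 12 by edgeR and by DESeq2. At an unadjusted p under 0.05, 1 of 12 was higher, where 11.3% of all genes tested were. Ppargc1a, the coactivator PGC-1 alpha, had the smallest p (1.24, adjusted p = 0.12, edgeR) at 0.67 CPM in Ctrl and 1.63 CPM in libraries labelled cKO. The log2 fold changes of the NRF1 gene Nrf1 and the GABP alpha gene Gabpa were 0.0015 and -0.0019, with adjusted p-values of 0.99 for both.

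The medians of the neighbouring complexes were close to these. All 36 tested subunits of complex I were below 0 (49.9% of all genes tested) with a median of -0.20. Of these 36, Ndufa4, Ndufa9 and Ndufb7 passed, where 3.79% of all genes tested were lower. Ndufa4, with a log2 fold change of -0.51 (adjusted p = 0.0015, edgeR), is listed there by its symbol, although its product is known to associate with complex IV. Of the 4 subunits of complex II, Sdhd passed (-0.43, adjusted p = 0.0087, edgeR), beside 3.79% of all genes tested, and the median was -0.17. Mitochondrial ribosomal proteins had a median of -0.14 with 4 of 77 lower, beside 3.79% of all genes tested. Cytosolic ribosomal proteins had a median of -0.09, with 0 of 85 lower by edgeR, 11 lower at an unadjusted p under 0.05 (11.5% of all genes tested) and 2 lower by DESeq2.

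Promoters were available from RefSeq for 32 of the 45 genes, each with 250 bases before and 50 after the start. Among the genes past the threshold, Cyc1, Uqcrq and Cox4i1 had no entry. The NRF1 motif (GCGCA, any base, then GCGC, on either strand) was found in 7 of the 32 promoters (21.9%) and in 4.78% of 27025 promoters of all genes. It stood in Uqcrc1, Cox6a1, Atp5o, Atp5g2, Atp5g3, Atp5h and Atp5k, 3 of which passed the threshold, while Atp5b passed without a match. The ETS motif (CCGGAAG, either strand) was found in 9 of the 32 (28.1%) and in 9.12% of all promoters. Of these 9, Cox6a1 passed the threshold and Uqcrh was among the members nearest to 0. The YY1 motif (AAGATGGC) was found in 1 of the 32 (3.13%) and in 2.88% of all, and the SP/KLF motif (GGGCGG) in 11 (34.4%) and in 35.9% of all. Matches of different motifs were counted separately, also where they overlapped. A link between a motif and the falls was not tested.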

How the data were processed

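LSK cells of 3 Ctrl and 3 cKO mice were profiled by stranded total RNA-seq. The authors aligned reads to GRCm38 with GSNAP and deposited raw counts of uniquely aligned reads per gene, made with featureCounts 1.5.0 on Ensembl 81 gene models (strand setting 1, minimum mapping quality 1), without normalization or pooling. Coordinates of genes are those of this table. Library totals were 13003573 to 21277519 counts, and floors of 3 counts cover counting error only. Groups were taken from the genotype labels, and mouse numbers only name mice within a group.

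Counts were scaled with TMM and tested with the quasi-likelihood test of edgeR 4.0.16 (R 4.3.3), filterByExpr defaults, genotype as the only term and Benjamini-Hochberg adjustment over 15184 genes. CPM used TMM factors, within-series differences log2 CPM with a prior count of 2, and TPM and shares the summed exon length. Shares were compared by exact permutation over mice (two-sided). The edgeR fit was tested on simulated counts, with larger changes than those of the members and no effect of library series. How it performs at changes as small as theirs was not tested.

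Members and gene lists were chosen with earlier results of these data known. Full values are given for members past the threshold and, per complex, those with the 2 smallest p-values and the largest p. Other members were named after their values had been seen. Alternatives were DESeq2 1.42.0, its size factors, other filters, removal of abundant RNA (394 genes), of length or GC trends (loess, span 0.3), library series as a covariate, a threshold of 0.01 and leaving out each mouse. Single markers that are withheld are not reported here.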

Additional observations from a re-analysis of the deposited data

How the results depend on the processing

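With the threshold at 0.01, the lower members were 1 in complex III, 1 in complex IV and 0 in ATP synthase. With no filter on low counts, complex IV had 5 and ATP synthase 4. DESeq2 gave 4 in each of these, and the library series as a covariate gave 1 in each. With 1 mouse left out, the counts ran from 1 to 4 for complex III, from 1 to 7 for complex IV and from 0 to 4 for ATP synthase. The medians ran from -0.31 to -0.23, from -0.30 to -0.17 and from -0.26 to -0.16. The exons of the tested members were short, with a median of 1414 bases against 3330.5 over all genes tested. With the length trend removed the median over the 42 members was -0.18 in place of -0.22, and 7 still passed. Over all members, no filter gave 14 lower and DESeq2 12 lower in place of 7. The fits differ in their base. In either direction, no filter called 1682 of 25890 genes and DESeq2 1277 of 15760. The library series as a covariate called 1089 of 15184, against 1164 of 15184 in the main fit. No alternative gave a higher member.

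Genes near 0 changed sign. Uqcrh was at 0.028 with the length trend removed and between -0.075 and 0.038 with 1 mouse left out. Atp5g2 was at -0.18 with the library series as a covariate and between -0.16 and 0.26 with 1 mouse left out. The ranges for Cox7a2l (-0.053 to 0.12), Cox6a2 (-0.53 to 0.75) and Cox7a1 (-0.0045 to 2.10) also crossed 0. So did the differences of the shares of Atp5g1 (-1.10 to 0.16 percentage points), Atp5g2 (-0.052 to 1.21), Atp5g3 (-1.27 to 1.15) and Cox6a2 (-0.087 to 1.15), and as shares of counts Atp5g3 was at 0.20. The cause of these changes was not tested. No paired analysis was possible because the labels give no replicate numbers or litters. Depth limited Cox4i2, Cox6a2, Cox7a1 and Atp5g2, which had at most 87 counts in a library.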

Other observations

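The rule on symbols also met 7 processed pseudogenes, which were left out of the counts above. Of these, 4 passed the filter on low counts and none passed the threshold with edgeR (none at an unadjusted p under 0.05). Cox6c2 was the most abundant, at 10.2 ± 2.07 CPM in Ctrl and 11.7 ± 2.81 CPM in libraries labelled cKO (SD, n = 3), with a log2 fold change of 0.19 (adjusted p = 0.63), while its parent gene Cox6c was at 153 and 139 CPM. Atp5k-ps2 had the smallest p of the 4, with a log2 fold change of -0.62 (adjusted p = 0.26), beside -0.24 for Atp5k.

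Of the 16 ATP synthase genes, Atp5g3 had the smallest unadjusted p for the interaction of genotype and library series (0.0018), with 72.3 CPM in Ctrl mouse 1 and 102 and 97.5 CPM in Ctrl mice 2 and 3, against 78.3, 76.9 and 73.3 CPM in mice labelled cKO 1 to 3. The 3 mice labelled cKO and Ctrl mouse 1 lay between 72.3 and 78.3 CPM, below the other Ctrl mice. Without Ctrl mouse 1 Atp5g3 passed (log2 fold change -0.39, adjusted p = 0.0072). The gene was chosen after its values had been seen.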
